A study of Mus musculus with 12 samples.

Results

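The 2751 regions described here carried the histone mark H3K4me1 in cKit+ bone marrow cells of mice with a Phf6 R274X transgene and were without a called H3K4me1 peak in wild type mice. They were found by merging overlapping or touching peaks of the 4 H3K4me1 peak lists into 139885 regions and keeping those with a peak in both transgenic libraries and in neither wild type library, which was 1.97% of all regions. The regions were thus chosen by measured values, the presence of H3K4me1 peaks, and are called Tg-only regions. The chromatin came from C57BL/6 bone marrow cells sorted for cKit, the receptor of stem cell factor, in transgenic mice (Tg, Phf6R274X) and wild type mice (WT). There were 2 libraries per genotype for each of H3K4me1, H3K27ac and H3K4me3, made by chromatin immunoprecipitation and sequencing (ChIP-seq). The labels give neither the promoter that drives the transgene nor its copy number or insertion site, nor the age or sex of the mice. They do not say whether the 2 libraries of a genotype came from separate animals, so the spread between them may be technical. Cells were profiled in bulk, where a mark in fewer cells and less of the mark per cell cannot be told apart.

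H3K4me1 is laid down at enhancers by the methyltransferases Kmt2c and Kmt2d and often precedes H3K27ac, the mark of active enhancers and promoters, so a region with H3K4me1 alone is commonly called a primed enhancer. H3K4me3 marks active or poised promoters. Phf6 is an X-linked chromatin-associated protein with PHD-like zinc fingers, mutated in T-cell and myeloid leukaemias, and R274X is a truncating change. Phf6 has been linked to the NuRD chromatin remodelling complex and to ribosomal RNA synthesis.

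Among Tg-only regions, 60 overlapped a promoter window of a protein-coding gene, which runs from 250 bases before to 50 bases after a RefSeq transcription start. Windows of 5 genes among the strongest of those covered whole, and the window of Tubb1, the beta-tubulin of platelets and the only window of a listed blood gene, are shown so that the base composition behind the counts can be read. The sequences are RefSeq's for build GRCm38.p6, on the strand of the gene from 5′ to 3′. Capitals mark 3 hexamers searched on both strands, each with its reverse complement: AGATAA for GATA factors, TGTGGT for Runx factors and AGGAAG for Ets factors. The windows are Chgb at chr2:132781392-132781691 on the plus strand, Nfam1 at chr15:83033348-83033647 on the minus strand, Bmper at chr9:23222826-23223125 on the plus strand, Steap3 at chr1:120270221-120270520 on the minus strand, Pear1 at chr3:87768904-87769203 on the minus strand and Tubb1 at chr2:174450345-174450644 on the plus strand.
Chgb: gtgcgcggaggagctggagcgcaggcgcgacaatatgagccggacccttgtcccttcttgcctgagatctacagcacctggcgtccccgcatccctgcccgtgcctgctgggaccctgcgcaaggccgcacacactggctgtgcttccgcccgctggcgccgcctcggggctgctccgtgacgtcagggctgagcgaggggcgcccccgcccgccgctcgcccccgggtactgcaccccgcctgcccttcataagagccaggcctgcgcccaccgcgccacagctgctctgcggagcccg
Nfam1: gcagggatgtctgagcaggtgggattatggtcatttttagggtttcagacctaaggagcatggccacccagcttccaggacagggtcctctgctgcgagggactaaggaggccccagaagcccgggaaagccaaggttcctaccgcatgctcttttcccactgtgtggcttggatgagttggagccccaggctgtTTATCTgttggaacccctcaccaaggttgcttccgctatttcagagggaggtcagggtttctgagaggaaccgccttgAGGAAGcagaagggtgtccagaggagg
Bmper: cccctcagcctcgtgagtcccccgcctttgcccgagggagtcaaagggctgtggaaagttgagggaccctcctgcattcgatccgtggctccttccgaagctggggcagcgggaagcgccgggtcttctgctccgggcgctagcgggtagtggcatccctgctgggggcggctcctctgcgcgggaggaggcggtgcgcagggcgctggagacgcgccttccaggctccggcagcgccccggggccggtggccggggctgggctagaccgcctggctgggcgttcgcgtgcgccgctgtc
Steap3: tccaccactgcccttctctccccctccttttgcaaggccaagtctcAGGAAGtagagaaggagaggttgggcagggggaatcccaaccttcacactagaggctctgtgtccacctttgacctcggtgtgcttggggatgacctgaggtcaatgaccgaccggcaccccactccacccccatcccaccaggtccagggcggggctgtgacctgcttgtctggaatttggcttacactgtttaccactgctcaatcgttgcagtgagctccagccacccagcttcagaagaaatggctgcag
Pear1: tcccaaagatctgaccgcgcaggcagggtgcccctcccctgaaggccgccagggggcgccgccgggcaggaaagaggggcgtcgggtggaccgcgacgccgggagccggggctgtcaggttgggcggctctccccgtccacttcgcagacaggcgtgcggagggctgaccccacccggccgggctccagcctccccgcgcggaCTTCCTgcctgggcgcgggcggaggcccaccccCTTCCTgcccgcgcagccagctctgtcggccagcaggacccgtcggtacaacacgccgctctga
Tubb1: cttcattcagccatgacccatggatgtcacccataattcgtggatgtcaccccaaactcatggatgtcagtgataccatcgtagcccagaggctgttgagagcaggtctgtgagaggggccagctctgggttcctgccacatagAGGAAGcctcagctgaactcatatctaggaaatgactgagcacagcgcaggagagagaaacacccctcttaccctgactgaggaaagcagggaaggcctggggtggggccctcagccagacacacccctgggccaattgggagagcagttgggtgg

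These windows differed in the other marks they carried. At Nfam1, an immunoreceptor signalling protein, H3K27ac covered 443 and 601 bp of the 601 bp region in Tg libraries and 601 and 601 bp in WT libraries, and a WT H3K4me1 peak lay 364 bp away. The Bmper region held no H3K27ac in any of the 4 libraries, while H3K4me3 covered 851 and 944 bp in the libraries labelled Tg and 944 and 944 bp in those labelled WT; the nearest WT H3K4me1 peak was 138304 bp away. Bmper is a secreted regulator of bone morphogenetic proteins. At Pear1, a platelet receptor, H3K4me3 covered 611 and 626 bp in the libraries labelled Tg and 608 and 631 bp in those labelled WT. Steap3, the endosomal ferrireductase of red cell precursors, and Tubb1 had neither H3K27ac nor H3K4me3 in their regions in any library. The Steap3 region ended 8 bp from a WT H3K4me1 peak.

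Over all 63 overlapped windows, which belong to 60 protein-coding genes, the median GC content was 56.3% and the median ratio of observed to expected CpG was 0.589. Over all 21263 windows of protein-coding genes the medians were 56.3% and 0.567. The GATA hexamer was in 11.1% of the overlapped windows, in 20.1% of those in WT-only regions, in 7.69% of those in regions of all 4 libraries and in 9.65% of all windows. The Runx hexamer was in 15.9%, 14.6%, 14.8% and 15.0% of these windows, and the Ets hexamer in 41.3%, 31.9%, 36.7% and 34.4%. A window counted once for a motif however many matches it held, also where matches overlapped. These shares describe letters in a window and say nothing of binding.

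A miRNA hairpin lay inside or within 1 kb of 6 Tg-only regions, which makes 7 hairpins of the 1005 in the RefSeq table. The region at chromosome X, 53052793 to 53053527, lay 457 bp from Mir503 and 728 bp from Mir322, which form a cluster of the miR-15/16 family. It had 17 and 15 reads at its summits in Tg libraries over a local background of 3.02 and 3.72 reads, no H3K27ac in any library, and the nearest WT peak 2361 bp away. Their 5p mature sequences, shown with the seed (bases 2 to 8) in capitals, share the seed up to its last base. The 5p miRNA of Mir3061, on chromosome 11, is shown because its hairpin overlapped a Tg-only region, as did the hairpins of Mir7057 and Mir7080.
mmu-miR-503-5p: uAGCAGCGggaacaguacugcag
mmu-miR-322-5p: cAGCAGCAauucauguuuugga
mmu-miR-3061-5p: cAGUGGGCcgugaaagguagcc

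Tg-only regions were weak members of the lists they came from, and narrower than regions found in all 4 libraries. Their median width was 527 bp (interquartile range 417 to 682 bp), against 585 bp for the 4547 regions found only in WT and 1715 bp for the 46121 regions found in all 4 libraries, and together they covered 1.59 Mb. The widest was 2561 bp and the narrowest 245 bp. In 2631 of them each Tg library had 1 peak. Width, number and rank come from the lists that chose the regions, so they are given as a description with no test. Single peaks had a median width of 486 bp in Tg replicate 1 and 619 bp in Tg replicate 2, and all merged regions 671 bp. Merging peaks of more lists can itself make a region wider.

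Rank was read from the deposited −log10 q-value, the significance the authors' peak caller gave each peak, as a percentile within each list. The median percentile of Tg-only regions was 27.1 in Tg replicate 1 and 30.0 in Tg replicate 2. Regions in all 4 libraries stood at 68.5 and 77.3 in the same 2 lists. WT-only regions stood at 35.5 and 31.6 in the WT lists. In Tg replicate 1, 79.9% of Tg-only regions were below the list's median, and in Tg replicate 2, 83.3% were. Strength is used below for the smaller of a region's percentiles in the 2 Tg lists. Its median was 17.0, and it passed 50 in 132 regions (4.80%) and 75 in 4.

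**Figure D1:**
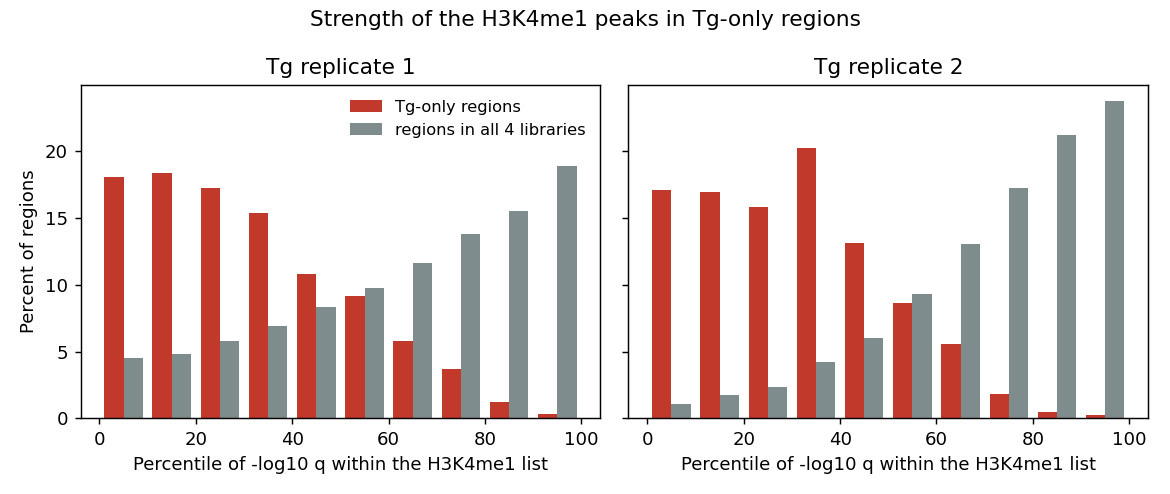
Percent of regions (y axis) in each step of 10 percentiles of the H3K4me1 list ranked by −log10 q (x axis, percentile), for Tg-only regions (red) and regions in all 4 libraries (grey) in Tg replicate 1 (left) and Tg replicate 2 (right). Tg-only regions have medians of 27.1 and 30.0, and regions in all 4 libraries have medians of 68.5 and 77.3.

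The reads behind these ranks were few. The fold and the p-value of a peak together fix the number of reads piled up at its summit and the local background the caller expected there, and these could be solved for every H3K4me1 peak. At their summits Tg-only regions had a median of 16 reads in Tg replicate 1 and 17 reads in Tg replicate 2, over median backgrounds of 3.85 and 3.82 reads. Regions in all 4 libraries had 27 and 31 reads in these libraries. The smallest pileup called at the lowest background was 9 and 10 reads in the Tg lists and 11 and 11 reads in the WT lists. A peak list holds no value where no peak was called, so a missing WT peak is not a measured absence of the mark.

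WT peaks were often close. The median gap to the nearest WT H3K4me1 peak was 1266 bp (interquartile range 285 to 4984.5 bp), with 498 regions (18.1%) within 200 bp and 1276 (46.4%) within 1 kb. A further group of 385 regions (14.0%) lay over 10 kb from any WT peak, and 25 lay over 100 kb away. The Tg lists held 104781 and 121172 peaks, and the WT lists 100316 and 130348. The median gap was 4191 bp to peaks of WT replicate 1 and 1388 bp to peaks of WT replicate 2, the longest list. Just inside the rule, regions near Rac2, Olfr111, Ptpn22 and Rasd2 ended 1 bp short of a WT peak. Just outside it, regions near Col5a1 and Prkcb shared 1 bp and 2 bp with a WT peak. Regions with peaks in both Tg libraries and 1 WT library numbered 612 with WT replicate 1 and 11760 with WT replicate 2.

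Position was read against a RefSeq table of 21887 protein-coding genes. Of the Tg-only regions, 229 (8.32%) lay within 1 kb of a gene end, 1465 (53.3%) farther inside a gene and 1057 (38.4%) outside genes. For WT-only regions these shares were 11.0%, 65.3% and 23.7%, and for regions in all 4 libraries 28.0%, 44.8% and 27.2%. The median distance to the nearest start in the promoter table was 30.1 kb for Tg-only regions, 19.2 kb for WT-only regions and 20.7 kb for all regions. A start lay within 1 kb of 148 Tg-only regions (5.38%). The promoter table gives a start for 17492 of the 21887 protein-coding genes, so these distances are upper limits, and the numbers of regions at a start or a promoter window are lower limits.

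**Figure D2:**
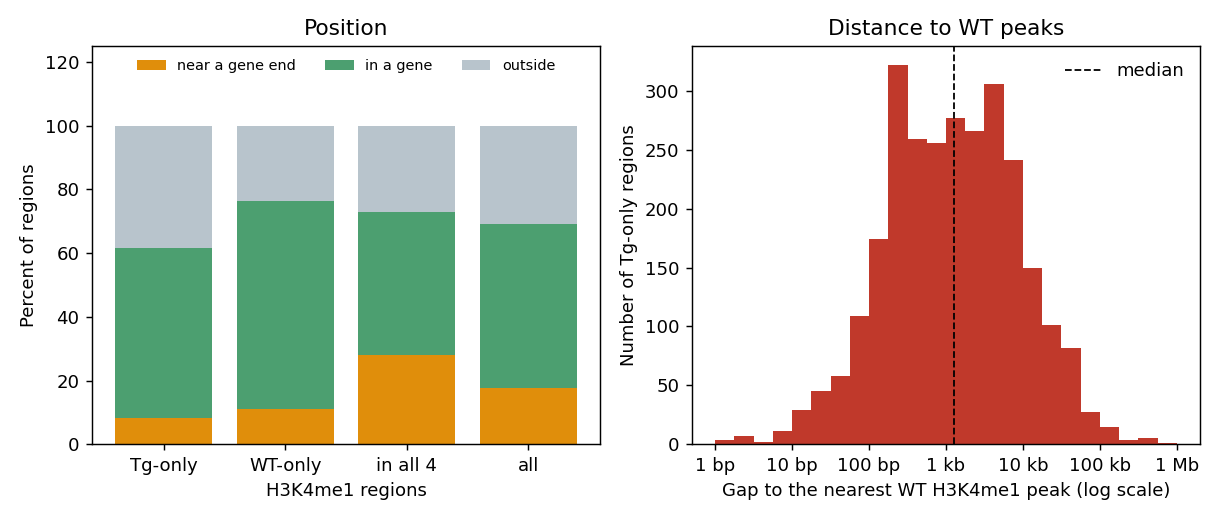
Left, percent of regions (y axis) near a gene end, in a gene and outside genes for Tg-only regions, WT-only regions, regions in all 4 libraries and all regions. Right, number of Tg-only regions (y axis) by gap to the nearest WT H3K4me1 peak (x axis, log scale), with the median of 1266 bp dashed; 38.4% of Tg-only regions lie outside genes, against 23.7% of WT-only regions.

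The strongest Tg-only region lay outside genes at chromosome 17, 57271174 to 57273667, 5433 bp upstream of Vav1, a guanine nucleotide exchange factor of blood cells. Its summits held 158 and 220 reads in Tg libraries, with no peak in either WT library, and its strength was 99.2. The local background there was 62.1 and 48.1 reads, which is 11.3 and 10.7 times the median background of the 2 Tg lists. Within 20 kb of it the highest background at a peak was 26.4 and 20.6 times the list median in Tg libraries, and 2.06 and 2.24 times in WT libraries, where 15 and 13 peaks were called. No H3K27ac peak lay in the region in any of the 4 libraries. The background was raised over a stretch wider than the region, far more in the Tg lists than in the WT lists. In H3K4me3, neither library labelled Tg had a peak there, and replicate 1 labelled WT had one with a background 13.3 times the list median, while replicate 2 labelled WT had none. A second Tg-only region lay at the far end of Vav1, at 57328828 to 57329315, with 28 and 14 reads over backgrounds of 4.97 and 3.72 reads.

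Phf6 itself held a Tg-only region, at chromosome X, 52931428 to 52931857, inside the gene and 19214 bp from its nearer end. Its summits held 65 and 107 reads over backgrounds of 27.3 and 32.1 reads, 4.97 and 7.15 times the list medians, and its strength was 68.4. Tg replicate 1 had 1 H3K4me1 peak within 20 kb of it and Tg replicate 2 had 6, WT replicate 1 had none, and WT replicate 2 had 1 at 0.787 times its list median. The background was raised at the peaks of both Tg lists. The lone WT peak, which showed no such rise, lay 17195 bp from the region, near the start of the gene. Neither WT list had a peak farther inside the gene, so neither gives a background at the Tg peaks. No H3K27ac lay in this region in any library. In H3K4me3, the libraries labelled Tg had no peak inside the gene away from its start, and those labelled WT had 6 and 4, with backgrounds up to 11.0 and 11.3 times the list medians. In each of the 4 H3K4me3 lists the names given to peaks state the other genotype than the label does, while in the other 8 lists name and label match, so H3K4me3 values are given by label only.

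Only 7 Tg-only regions had a local background over 2 times the list median in both Tg libraries. Besides Vav1 and Phf6 they lay in or next to Sp110 and Sp140, neighbouring members of the Sp100 family of nuclear body proteins, and Tlcd1, H4c11 and Gm13290. At Sp110 the ratios were 4.46 and 6.47, and at Sp140 they were 3.47 and 4.12. Around Sp110 the highest background was 7.84 and 7.83 times the list median in Tg libraries and 8.22 and 9.48 times in WT libraries. There the background was high in all 4 lists. Sp110, Sp140 and the histone gene H4c11 have close relatives next to them, and the assignment of reads to these regions was not tested.

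**Figure D3:**
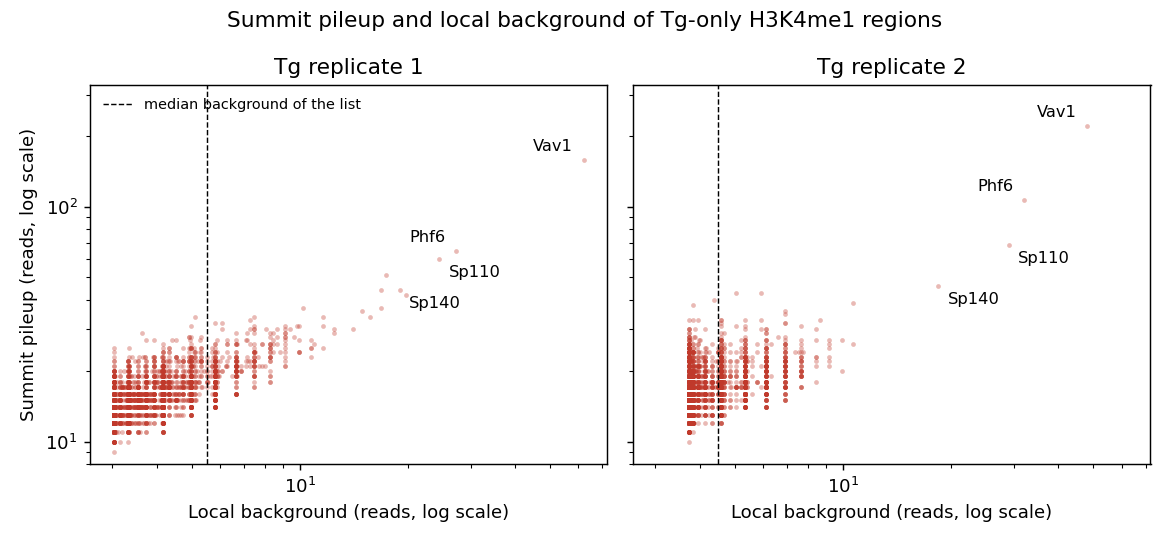
Summit pileup (y axis, reads, log scale) against local background (x axis, reads, log scale) for each Tg-only H3K4me1 region in Tg replicate 1 (left) and Tg replicate 2 (right), with the list's median background dashed. The upstream Vav1 region has the highest pileup, 158 and 220 reads, and the Phf6 region the next, 65 and 107 reads.

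At the other strongest regions the local background was between 3.02 and 7.26 reads. Smyd3, a lysine methyltransferase gene, held a region of 400 bp with 25 and 33 reads (strength 83.2), 142 bp from a WT peak. A region 60531 bp from Hk2, the hexokinase gene of glycolysis, had 33 and 33 reads (strength 83.0) and carried no H3K27ac in Tg libraries, against 476 and 445 bp in WT libraries. With 1 kb on each side it had 502 and 512 bp in Tg and 1269 and 1295 bp in WT. Cdc42ep3, an effector of the small GTPase Cdc42, was the nearest gene to 2 strong regions. The nearer, 88818 bp away, had 23 and 29 reads and a WT peak 216 bp from it. The farther, 101790 bp away, had 27 and 33 reads and was 50815 bp from any WT peak.

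Further strong regions lay at varied distances from WT peaks. The region 883 bp from Dusp5, a phosphatase that acts on ERK, had 20 and 29 reads, a WT peak 1400 bp away and no H3K27ac in any library. A region 1685 bp from Cep120, a centriole protein, had 21 and 33 reads and lay 6424 bp from a WT peak. The region near Cacna1b, a calcium channel subunit, had 23 and 25 reads and was 14753 bp from a WT peak. Near Tlr5, the receptor of bacterial flagellin, 28 and 27 reads stood 151 bp from a WT peak, and H3K27ac covered 167 and 0 bp in Tg libraries and 247 and 55 bp in WT libraries. Nod1, a sensor of bacterial peptidoglycan, held a region with 24 and 24 reads, 107 bp from a WT peak. The other strongest regions, near Spsb1, Arl8b, Nxpe5, Tmem18, Spdye4c, Cds1, L3mbtl4, Jph3 and Hopx, had strengths between 69.7 and 74.8.

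Most Tg-only regions stood apart from each other. Joining regions up to 50 kb apart left 1954 that stood alone, with 797 (29.0%) in groups of 2 or more and 80 groups of 3 or more. The largest group held 6 regions over 61.9 kb between Arhgap28 and L3mbtl4 on chromosome 17. Chd7, a chromodomain remodeller found at enhancers, held 5 regions within 10.9 kb, with 12 to 16 reads in Tg replicate 1 and 14 to 22 reads in Tg replicate 2. All 5 were without H3K27ac in all 4 libraries. Another 5 lay around Jak3, Fcho1 and Unc13a. By gene, with 10 kb on each side, Pde4d, a cAMP phosphodiesterase of over 1 Mb, had the most with 7 of its 140 H3K4me1 regions, and 6 others were WT-only. Dock9, Slc39a11 and Aopep had 5 each, of 48, 46 and 59 regions.

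The X chromosome held 82 Tg-only regions among its 2659 H3K4me1 regions (3.08%) and 47 WT-only regions (1.77%). Autosomes had the opposite order, with 1.94% Tg-only and 3.28% WT-only. The median strength of Tg-only regions was 13.1 on the X and 17.6 on autosomes. The share of all H3K4me1 peaks on the X was 1.26% and 1.85% in Tg lists and 0.935% and 1.67% in WT lists, which overlap between genotypes. The sex of the mice is not given in the labels, and its part in these counts was not tested. After Phf6, the strongest X-linked regions were one near AA414768 with 19 and 21 reads, one near Zfp449 with 17 and 21 reads, and one in Dock11 with 15 and 20 reads.

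A Tg-only region lay within 10 kb of an end of 1306 of the 21887 protein-coding genes, 5.97%, and a WT-only region near 2352, 10.7%. Counting gene bodies too, 2043 genes (9.33%) had a Tg-only region. These shares are the background for the lists of genes, whose counts are given without a test. Gene length differed between lists, and its part in their counts was not tested. The median length was 44.6 kb in the stroma and endothelium list and 16.5 kb in the erythroid list, against 17.2 kb over all protein-coding genes.

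Lists of stem and progenitor genes gave counts of 1 and 2 genes. Of 24 stem cell and self-renewal genes only Meis1, a Hox cofactor of stem cells, had one within 10 kb of an end (4.17%), with 17 and 21 reads, 8403 bp from the gene. A second Meis1 region lay inside the gene with 16 and 16 reads. A WT peak lay 3502 bp from the first and 1573 bp from the second. Hoxb3, a homeobox gene, held a region with 18 and 15 reads, 6962 bp from a WT peak. Of 17 myeloid progenitor genes, Spi1, which encodes the myeloid transcription factor PU.1, held a region with 19 and 16 reads, 185 bp from a WT peak. Csf3r, the receptor of G-CSF, had one 6573 bp away with 16 and 21 reads, 1815 bp from a WT peak. No H3K27ac lay in any of these regions.

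Among lists of other blood and marrow cells the largest share was in stroma and endothelium, 4 of 18 genes (22.2%), with none near a WT-only region. These were Col1a2, a collagen chain, Sparc, a matrix protein, Flt1, a VEGF receptor, and Pdgfrb, a receptor of mesenchymal cells. Their regions had 12 to 15 reads in Tg replicate 1 and 14 to 20 reads in Tg replicate 2, and none held H3K27ac in any library. The nearest WT peak was 17233 bp from the Col1a2 region, 9692 and 9342 bp from the 2 Sparc regions, 711 bp from the Flt1 region and 1325 bp from the Pdgfrb region. Of 18 T-lymphoid genes, Cd4, Tcf7 and Notch3 had a Tg-only region nearby (16.7%) and 2 had a WT-only one. B-lymphoid genes gave 2 of 18 (Rag2 and Foxo1), monocyte and macrophage genes 2 of 16 (Fcgr1, an Fc receptor, and F13a1), NK cell genes 1 of 13 (Klrb1c), megakaryocyte genes 1 of 17 (Tubb1) and mature granulocyte genes 1 of 17 (Ngp). WT peaks lay 28 bp from the region of Rag2, 180 bp from that of Klrb1c, 268 bp for Ngp and 288 bp for F13a1. The gap was 926 bp for Notch3, 1613 bp for Fcgr1, 2149 bp for Tubb1, 4623 bp for Foxo1, 7565 bp for Tcf7 and 9067 bp for Cd4.

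Erythroid genes stood at the other end. None of 21 had a Tg-only region within 10 kb of an end, against 11 (52.4%) with a WT-only region. Counting gene bodies too, 1 erythroid gene, Sptb, had a Tg-only region and 13 had a WT-only one. Mast cell and basophil genes had none of 14 within 10 kb of an end, against 1 with a WT-only region. How far the mix of cells in the sorted fraction moves with these counts was not tested. The cells' own markers carried the mark: Kit, with no Tg-only and 1 WT-only region, had 17056 and 28817 bp of H3K4me1 peaks in Tg libraries and 14961 and 33431 bp in WT libraries, and Spi1, Runx1, Myb, Flt3 and Mpo carried H3K4me1 and H3K27ac in every library. H3K27ac at Mpo, the myeloperoxidase of granulocyte progenitors, covered 10152 and 11034 bp in Tg libraries and 4698 and 3032 bp in WT libraries. Spi1, Runx1 and Myb went the other way, and in none of these genes did the genotypes overlap. For scale, 47205 H3K4me1 regions held H3K27ac within 1 kb in at least 2 libraries. Both Tg libraries were below both WT libraries in 44.1% of them and above in 7.82%. No such share over whole genes is given. Spi1 had 15047 and 15095 bp in Tg and 18642 and 17625 bp in WT. Runx1 had 25006 and 28615 bp against 33242 and 28915 bp, and Myb 7663 and 9367 bp against 12536 and 11258 bp. At Kit and Flt3 the genotypes overlapped. The part of these differences in the counts above was not tested. Cd34 carried H3K4me1 in all 4 libraries and H3K27ac in none. H3K27ac at Gata2 covered 0 and 420 bp in Tg libraries and 0 and 281 bp in WT libraries.

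Signalling and chromatin lists gave small counts. Of 26 JAK-STAT genes, Socs2, Jak3 and Csf3r had a Tg-only region nearby (11.5%) and 9 had a WT-only one. The region in Socs2, the feedback inhibitor of cytokine signalling, had a strength of 65.0, with 23 and 23 reads and no WT peak within 9746 bp. That near Jak3, the kinase of common gamma chain receptors, had 23 and 19 reads and a WT peak 969 bp away. Wnt signalling gave 4 of 24 (Tcf7, Wnt10b, Axin2 and Dkk2) and 5 with a WT-only region. Of 15 NuRD genes, Mta3 and Gatad2a had one (13.3%) and 9 had a WT-only region. The region counted for Gatad2a, 272 bp wide, overlapped another gene, Tssk6, and lay 3909 bp from Gatad2a. It was covered whole by H3K27ac and by H3K4me3 in all 4 libraries of each mark. A WT H3K4me1 peak lay 152 bp from it, and one lay 185 bp from the Mta3 region. H3K4 methylation and enhancer machinery gave Rcor1 alone of 18, with a WT peak 203 bp from its region, against 8 with a WT-only region. Axon guidance gave Plxnc1 alone of 28, TGF-beta and BMP signalling none of 22, and synaptic adhesion genes none of 26.

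**Figure D4:**
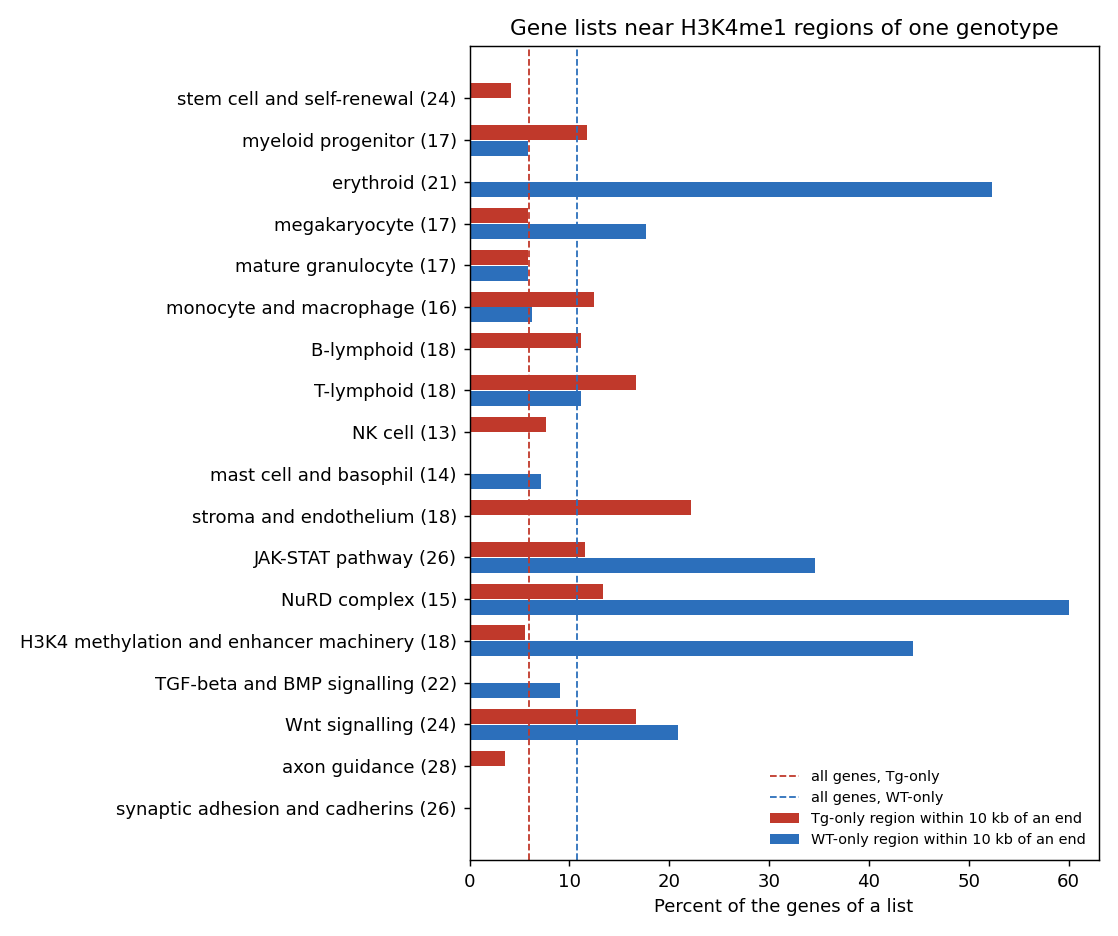
Percent of the genes of each list described here (x axis; number of genes in brackets on the y axis) with a Tg-only H3K4me1 region (red, upper bar) or a WT-only region (blue, lower bar) within 10 kb of a gene end. Dashed lines are the shares of all protein-coding genes, 5.97% and 10.7%. Stroma and endothelium has the highest Tg-only share at 22.2%. Erythroid, mast cell and basophil, TGF-beta and BMP signalling, and synaptic adhesion genes have none.

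H3K27ac was measured in other libraries than those that chose the regions, so it could be compared between genotypes. An H3K27ac peak overlapped 3.85% and 5.38% of them in Tg libraries and 7.12% and 4.33% in WT libraries, a mean of 4.62 ± 1.08% in Tg and 5.73 ± 1.98% in WT (SD, n = 2 each). The groups overlapped. With only H3K4me1 peaks of −log10 q of at least 5 kept in all 4 lists, the means were 14.9% in Tg and 17.7% in WT. That cut also drops weaker WT peaks, so those regions are another set and not the stronger part of the 2751. Of the 2751 regions, 2486 (90.4%) had no H3K27ac in any library and 65 had it in all 4. WT-only regions had 5.48 ± 1.62% in Tg and 6.56 ± 1.01% in WT, and regions in all 4 libraries had 52.1 ± 6.96% in Tg and 57.6 ± 6.96% in WT. The difference of Tg minus WT was −1.11 percentage points in Tg-only regions and −1.09 in WT-only regions. The H3K27ac lists covered 28.5 and 33.8 Mb in Tg libraries and 45.7 and 36.6 Mb in WT libraries.

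**Figure D5:**
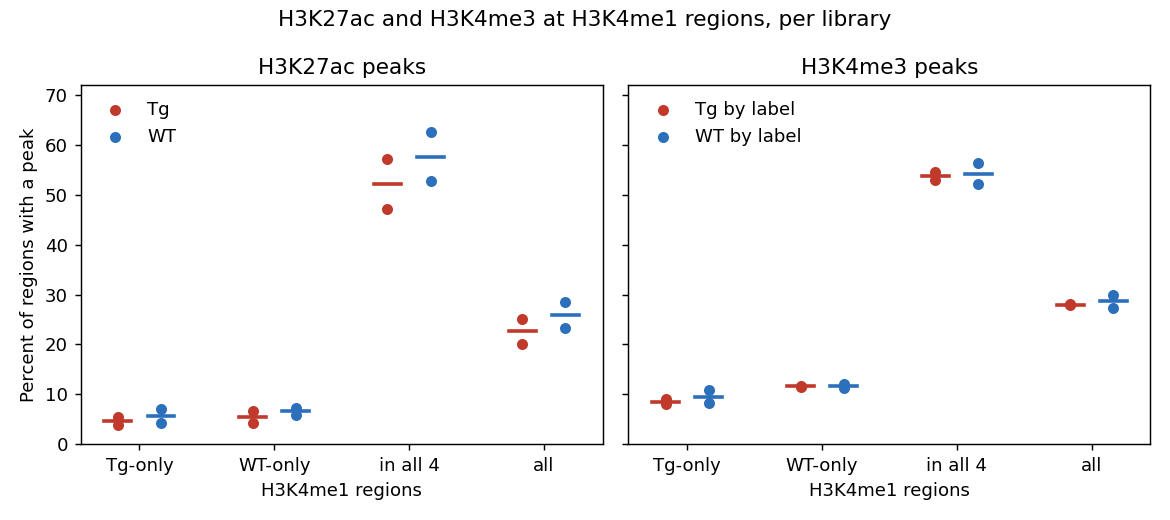
Percent of regions with a peak (y axis) of H3K27ac (left) and H3K4me3 (right, by label) for Tg-only regions, WT-only regions, regions in all 4 libraries and all regions; points are libraries, bars their mean, Tg in red left of WT in blue. Tg-only regions carry H3K27ac in 3.85% and 5.38% in Tg libraries and 7.12% and 4.33% in WT libraries.

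Presence of H3K27ac in both Tg libraries and neither WT library was found in 4 Tg-only regions, 0.145% of them, against 0.504% of all H3K4me1 regions. The reverse pattern was found in 20, or 0.727%, against 1.64% of all regions. These shares include regions with no H3K27ac in any library, 90.4% of Tg-only regions and 67.9% of all regions. They thus do not compare regions that hold H3K27ac. The 4 lay in Camk2b, a calmodulin kinase subunit, with 351 and 351 bp of H3K27ac in Tg libraries, in Oxsr1, a stress-responsive kinase, with 317 and 336 bp, near Tmem126a, a mitochondrial protein, with 255 and 218 bp, and in Ppargc1b, a coactivator of mitochondrial genes, with 214 and 217 bp. All 4 regions had 0 bp in both WT libraries. With 1 kb on each side, Oxsr1 had 649 and 664 bp in Tg libraries and 460 and 0 bp in WT libraries, and Ppargc1b had 422 and 973 bp in Tg and 0 and 706 bp in WT. Their H3K4me1 summits had 18 to 34 reads in Tg replicate 1 and 18 to 22 in Tg replicate 2. With H3K27ac regions built by the same rule, 5 Tg-only H3K4me1 regions (0.182%) overlapped 4 of the 939 Tg-only H3K27ac regions (0.426%). With the 2371 WT-only H3K27ac regions, 13 Tg-only H3K4me1 regions (0.473%) overlapped 13 (0.548%).

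A graded comparison used the length of H3K27ac peaks within each region and 1 kb on each side, as log2(bp + 500), in limma across all 47205 H3K4me1 regions with H3K27ac in at least 2 libraries. Of the Tg-only regions 350 passed this filter and 2401 did not. At an adjusted p under 0.05 limma called 0 of the 350, and 0 of all 47205 regions (0%) in either direction. At an unadjusted p under 0.05 limma gave 65 of the 350 (18.6%), 34 higher and 31 lower in Tg, against 15.6% of all regions tested. The smallest adjusted p was 0.0861. Both Tg libraries were above both WT libraries in 41 regions (11.7%; 7.82% of all regions) and below them in 123 (35.1%; 44.1% of all regions). The median log2 difference of Tg over WT was 0.15 in the 350 and 0.06 in all regions tested after quantile normalisation, and −0.12 and −0.18 without it. Positive differences numbered 233 of the 350 with quantile normalisation (66.6%), against 57.6% of all regions tested and 66.8% of WT-only regions. Without normalisation they numbered 115 (32.9%), against 22.9% of all regions tested and 25.8% of WT-only regions.

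The regions with the largest H3K27ac differences did not pass limma's threshold. In Ankrd55, an ankyrin repeat gene, the window held 1270 and 818 bp in Tg libraries and 0 and 0 bp in WT libraries, a log2 difference of 1.64 ± 0.24 (SE; limma's adjusted p = 0.0903). Camk2b had 995 and 789 bp in Tg and 0 and 0 bp in WT. Near Pdk1, a kinase that restrains pyruvate dehydrogenase, the window held 445 and 854 bp in Tg and 0 and 0 bp in WT. In Clip1, a microtubule plus-end protein, it held 614 and 750 bp in Tg and 238 and 0 bp in WT. Near Deptor, an inhibitor of mTOR, it held 638 and 480 bp in Tg and 0 and 0 bp in WT. These Tg values were above the WT values in every library.

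In the other direction, the window in Klhdc4 held 0 and 0 bp in Tg libraries and 1290 and 1345 bp in WT libraries, a log2 difference of −1.63 ± 0.16 (SE; limma's adjusted p = 0.0861). Near Cdk18, a cyclin-dependent kinase, it held 0 and 0 bp in Tg and 1227 and 1347 bp in WT. Peak1, a pseudokinase of the cytoskeleton, had 0 and 340 bp in Tg and 1702 and 1484 bp in WT. Tle3, a Groucho-family corepressor, had 0 and 0 bp in Tg and 1541 and 685 bp in WT. Near Ncapg2, a condensin II subunit, the window held 255 and 0 bp in Tg and 1790 and 1114 bp in WT. In these regions H3K4me1 peaks were called only in Tg, while H3K27ac lengths with 1 kb on each side were greater in WT. In the region alone the log2 difference was −0.83 at Klhdc4, −1.21 at Cdk18, −0.38 at Peak1, −1.08 at Tle3 and −0.64 at Ncapg2. WT H3K4me1 peaks could lie outside the region, as at Cdk18, 2037 bp away.

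H3K4me3 was also scarce. By label, a peak overlapped 8.07% and 9.05% of Tg-only regions in Tg libraries and 10.8% and 8.32% in WT libraries, while all H3K4me1 regions had 27.9% and 28.0% in Tg and 30.0% and 27.4% in WT. No H3K4me3 was found in any library in 2430 Tg-only regions (88.3%), and 186 had it in all 4.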

How the data were processed

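Each of the 12 libraries had 1 deposited peak list. Per the submitters' processing notes, Bowtie2, MACS2, SAMtools, deepTools, Trim Galore and FastQC were used with build mm10; settings and the control library are not given in the sources used here. Each deposited peak carries a fold ratio at the summit, a score, and p- and q-values as −log10, all the authors' own. The lists hold no read counts, so library depth is unknown. From the fold, taken as pileup plus 1 over background plus 1, and the Poisson p-value, the summit pileup and local background were solved for 740742 of 750343 peaks in all lists, with a largest mismatch of 0.00022 in −log10 p. These reads are not compared between libraries as levels.

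Regions were merged in Python 3.11.15 and annotated from a RefSeq table of GRCm38.p6, which gives no strand or exons; genomic sequence of the regions was not used. Coordinates are 1-based. H3K27ac lengths were compared with limma 3.58.1 (R 4.3.3) with quantile normalisation, Benjamini-Hochberg adjustment over all regions tested, and no block; it was tested on simulated data. Named regions are the 20 strongest, the 5 widest, the genes with most regions, members of the gene lists, the 5 largest H3K27ac differences each way, those with H3K27ac in Tg only, and Phf6, Vav1 and Kit. The members and the lists were chosen with earlier results of these data known. Some of the results are not reported here.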

Additional observations from a re-analysis of the deposited data

How the results depend on the processing

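The number of Tg-only regions depended most on the lists used. It was 1771 with peaks of −log10 q of at least 5 and 1828 with peaks up to 500 bp apart merged, against 2751. The cut at 5 was made in all 4 H3K4me1 lists, so a region with a weaker WT peak could then count as Tg-only. The regions from stronger H3K4me1 peaks below are thus not a subset of the 2751. Leaving out 1 library gave between 3440 (without WT replicate 1) and 20415 (without Tg replicate 1), since fewer lists then set the rule; without Tg replicate 2 it was 9263 and without WT replicate 2 it was 16005. The mean share with H3K27ac was 2.27% in Tg and 3.34% in WT when H3K27ac had to cover 50% of a region, 11.3% and 12.9% with 1 kb on each side, 3.31% in Tg with stronger H3K27ac peaks, and 14.9% and 17.7% for regions from stronger H3K4me1 peaks. Tg stayed below WT in each of these means. The order turned without WT replicate 1, where the WT share was 4.33% against a Tg mean of 4.62%. Without the 7 regions of raised local background, a choice made after seeing the data, the mean share was 4.48% in Tg and 5.61% in WT. The share near a gene end was 23.6% within 5 kb and 14.0% for regions from stronger peaks. Within 50 kb of an end, 4355 genes had a Tg-only region.

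The median H3K27ac difference of the 350 tested regions reversed to −0.12 (log2) without normalisation, where the median of all regions was −0.18. Where 1 genotype had 0 bp, the size of a log2 difference depended on the bp added before the log. With 100 bp added it was 3.40 at Ankrd55 and −3.26 at Klhdc4, against 1.64 and −1.63 with 500 bp. limma called 0 regions in every alternative run. The 10 named regions, picked for their size of difference, had adjusted p between 0.0556 and 0.543 over the 110 alternatives in which they were tested; most had no H3K27ac in 1 genotype, and some left the test when a library of the other was left out. With the replicate number as a block limma called 0 regions as well, with 6556 at an unadjusted p under 0.05. The numbers do not pair the samples: the correlation of same-numbered deviations was −0.15 over 47205 regions. A crossed block, added after seeing the data, gave 0 calls and 7962 at an unadjusted p under 0.05. Depth is unknown, so a missing peak cannot be set against a counting limit.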

Other observations

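The widest Tg-only regions lay near genes outside the lists. The region near Qpct, an enzyme that cyclises glutamine at protein ends, was 1783 bp wide, among the widest, and had 22 and 39 reads in Tg libraries, no H3K27ac in any library and a WT peak 2548 bp away. The widest region, near Cemip2, a cell surface hyaluronidase, was 2561 bp wide with 19 and 25 reads; Tg replicate 1 covered 341 bp of it and Tg replicate 2 all of it. It carried H3K27ac in all 4 libraries, 391 and 354 bp in Tg and 504 and 557 bp in WT. The region near Tmem18 was 2317 bp wide, but Tg replicate 1 covered 442 bp of it and Tg replicate 2 covered all of it, so the width of both came from 1 library.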
